A study of Mus musculus with 9 samples.

Results

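The mitochondrial genome of the mouse heart was followed through its 37 rows in a table of gene expression, chosen as every row whose gene name begins with mt-. They were 37 of the 56748 rows of the table and comprised 13 protein-coding genes, 2 ribosomal RNA (rRNA) genes and 22 transfer RNA (tRNA) genes. The same 37 rows were all those that the table places on chromosome MT. The study sequenced RNA from whole hearts of mouse pups at postnatal day 1. The labels divide the 9 libraries evenly among 3 genotypes, with 3 per genotype: wild-type mice (WT), one in which Cd36 was deleted throughout the body (CD36KO) and another in which it was deleted in cardiomyocytes (CD36CKO). No other allele and no treatment is named for any group. Strain, litter, sex, the driver of the cardiomyocyte deletion and any pooling of pups are all missing from the sources used here. Although sex is not stated, CD36KO 3 and CD36CKO 3 are the libraries with Y-linked transcripts, and no WT library is among them. The labels number the replicates without saying that each came from its own animal, so the p-values measure the spread between libraries, which may be technical.

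The mitochondrial genome is a small circle that is present in many copies per cell. It is transcribed from both strands as long precursors, which are cut largely at the tRNAs that lie between the other genes. Its coding genes specify core subunits of 4 complexes of oxidative phosphorylation: the NADH dehydrogenase (complex I), the cytochrome bc1 complex (complex III), cytochrome c oxidase (complex IV) and the ATP synthase (complex V). All other subunits of these complexes, all of complex II and the proteins that copy, transcribe and process mitochondrial RNA are encoded in the nucleus. In the heart, which burns fatty acids after birth, mitochondria fill much of each cardiomyocyte. Cd36 encodes a membrane protein that brings long-chain fatty acids into the cell.

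Levels are FPKM values (fragments per kilobase of gene length, scaled to library size), and 14408631 to 20725356 reads per library lay behind them. Fold changes are differences of the group means of log2(FPKM + 1), tested with limma over the 12206 genes that averaged 1 FPKM or more, and FDR denotes the limma p adjusted by the Benjamini-Hochberg method over all of these genes. The threshold was an FDR of 0.05, and tests were two-sided with 3 libraries per group. Cd36 itself serves to check the labels and is given before the mitochondrial rows. Its levels were 163, 150 and 125 FPKM for the WT replicates, 72.4, 64.0 and 60.6 FPKM for CD36KO, and 201.0, 183.4 and 163.4 FPKM for CD36CKO. The fall in CD36KO passed the test (log2 fold change -1.14, SE 0.14, FDR = 0.00345). The libraries labelled CD36CKO did not carry less Cd36 than WT (0.32, SE 0.14, FDR = 0.153), so this check did not bear out their label. The hearts were sequenced whole, with all their cell types, and CD36KO itself kept 60.6 to 72.4 FPKM. These levels therefore cannot show whether Cd36 was deleted in cardiomyocytes. The libraries are called CD36CKO-labelled libraries throughout, and any direction drawn from them holds for libraries with that label.

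The mitochondrial rows took a larger share of the reads in both other groups than in WT. Their share was 6.02%, 4.55% and 8.89% in WT 1 to 3 (6.49 ± 2.21, SD, n = 3). It was 11.9%, 11.1% and 14.3% in CD36KO (12.4 ± 1.68) and 10.3%, 10.3% and 12.2% in the CD36CKO-labelled libraries (10.9 ± 1.13). The highest library of each of these groups, CD36KO 3 and CD36CKO 3, is the one with Y-linked transcripts, and the part of sex was not tested. Every library of both groups lay above every WT library, and the groups CD36KO and CD36CKO overlapped each other. The 3 kinds of gene did not share this pattern. Coding genes carried nearly all of it, with a range of 4.36% to 8.52% of the reads in WT, of 10.6% to 13.8% in CD36KO and of 9.98% to 11.9% in the CD36CKO-labelled libraries. The rRNA rows held 0.147% to 0.310%, 0.361% to 0.462% and 0.239% to 0.342% in the same order. The tRNA rows held 0.0510% to 0.0674% in WT and 0.0583% to 0.0712% in CD36KO, which overlap, and 0.0354% to 0.0498% in the CD36CKO-labelled libraries, which lay below both. Most of that lower share lay in the cysteine and asparagine genes mt-Tc and mt-Tn. They averaged 2696 and 1226 FPKM in WT and 962 and 464 FPKM in the CD36CKO-labelled libraries. The sum over all tRNA rows averaged 8165 FPKM and 5397 FPKM. These shares are sums over the members and carry no test.

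**Figure D1:**
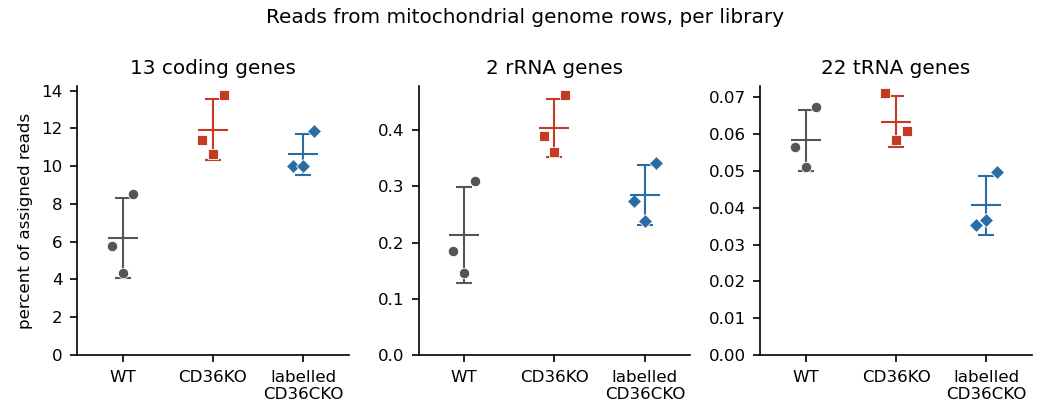
Percent of assigned reads from the coding, rRNA and tRNA rows of the mitochondrial genome in each library; points are libraries, the long line is the group mean and bars are 1 SD (n = 3). Coding and rRNA shares were lowest in WT on average, while the tRNA share was lowest in the CD36CKO-labelled libraries, at 0.0407 ± 0.00795%.

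All 13 coding genes passed the filter on low values. In CD36KO against WT, 8 of the 13 rose and none fell, where 5.81% of all genes tested rose and 6.70% fell. The 13 log2 fold changes ran from 0.43 to 2.42 with a median of 1.08, against -0.01 over all genes tested. In 11 of the 13 every CD36KO library lay above every WT library, as in 17.4% of all genes. In the CD36CKO-labelled libraries, 3 of the 13 rose and none fell, where 5.36% of all genes rose and 7.32% fell. Their fold changes ran from 0.17 to 1.71 with a median of 0.84, against 0.00 over all genes, and 9 of the 13 did not overlap WT, as in 15.7% of all genes. Both comparisons share the WT libraries. Without CD36KO 3 the count of 8 became 1, without CD36KO 1 or WT 1 it became 2, without CD36KO 2 it became 3, and without any 1 of WT 2, CD36CKO 2 and CD36CKO 3 it became 5. The count of 3 became 0 without any 1 of WT 2, CD36CKO 1, CD36CKO 2 and CD36CKO 3, 1 without WT 1 or any 1 of the CD36KO libraries, and 9 without WT 3. Counts over all genes moved as well. Without WT 3, 1783 of all genes rose in the CD36CKO-labelled libraries, against 654, and without CD36KO 3, 166 rose in CD36KO, against 709. With the mitochondrial and haemoglobin rows removed before rescaling, the median of all genes moved to 0.10 in CD36KO and 0.22 in the CD36CKO-labelled libraries. All genes then split into 705 higher and 319 lower in CD36KO, against 709 and 818, and into 1623 higher and 402 lower in the CD36CKO-labelled libraries, against 654 and 893. Between CD36KO and the CD36CKO-labelled libraries, 0 of the 13 passed the limma threshold in either direction and 0 had an unadjusted p under 0.05, where 2.61% of all genes were higher and 1.93% lower. The 13 differences had a median of 0.28, with 12 above 0 and 1 below. In 4 of the 13 every CD36KO library lay above every CD36CKO-labelled library, and the share of all genes that did so was not counted.

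**Figure D2:**
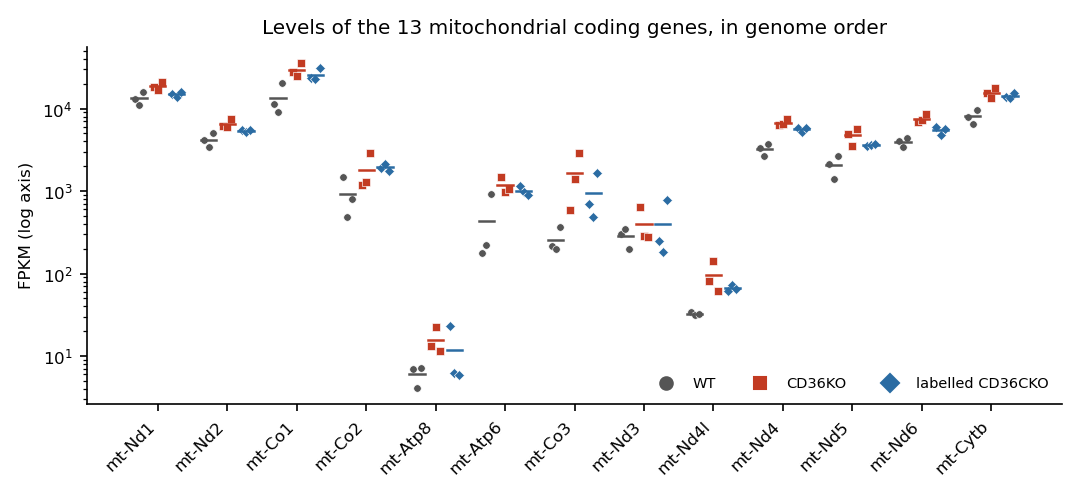
FPKM of the 13 mitochondrial coding genes in genome order, on a log axis; points are libraries and short lines are group means (n = 3). Levels span from 4.11 FPKM for mt-Atp8 to 35447 FPKM for mt-Co1, and mt-Co3 runs from 583 to 2908 FPKM within CD36KO, while mt-Nd4l runs from 31.6 to 34.2 FPKM within WT.

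Complex I has 7 subunits encoded here, and 4 of them rose in CD36KO. mt-Nd4l (MT, 9877 to 10173, plus strand), a small membrane subunit, stood at 34.2, 31.6 and 32.1 FPKM in WT, 80.9, 143 and 62.1 FPKM in CD36KO and 61.4, 73.5 and 64.9 FPKM in the CD36CKO-labelled libraries. All 6 libraries of the latter groups lay above WT, and the WT libraries differed little. The log2 fold change was 1.43 (SE 0.25, FDR = 0.0102) in CD36KO and 1.00 (SE 0.25, FDR = 0.0322) in the CD36CKO-labelled libraries. The value rested on 168 to 660 reads per library. mt-Nd4l was the only coding gene that stayed past the threshold for CD36KO under all 20 alternative settings.

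mt-Nd4 (10167 to 11544, plus strand), a large proton-pumping subunit whose start overlaps mt-Nd4l by 7 bases, held 3310, 2634 and 3719 FPKM in WT. It reached 6339, 6431 and 7575 FPKM in CD36KO and 5801, 5211 and 5837 FPKM in the CD36CKO-labelled libraries. The 3 groups did not overlap one another: WT was lowest and CD36KO highest. It rose by 1.08 in CD36KO (SE 0.21, FDR = 0.0137) and by 0.81 in the CD36CKO-labelled libraries (SE 0.21, FDR = 0.0347), while the difference between the latter groups did not pass (0.27, FDR = 0.485). mt-Nd5 (11742 to 13565, plus strand), another pumping subunit, held 2107, 1395 and 2659 FPKM in WT, 4936, 3494 and 5727 FPKM in CD36KO and 3559, 3656 and 3695 FPKM in the CD36CKO-labelled libraries. It rose in CD36KO (1.22, SE 0.27, FDR = 0.0239), and its change of 0.87 in the CD36CKO-labelled libraries missed the threshold (SE 0.27, FDR = 0.0645). WT was again below both groups.

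mt-Nd6 (13552 to 14070) is the only coding gene on the minus strand and overlaps mt-Nd5 by 14 bases. It held 4049, 3377 and 4364 FPKM in WT, 6793, 7334 and 8585 FPKM in CD36KO and 5972, 4842 and 5690 FPKM in the CD36CKO-labelled libraries. The groups did not overlap, with WT lowest. It rose in CD36KO (0.95, SE 0.21, FDR = 0.0223), and 0.49 in the CD36CKO-labelled libraries missed the threshold (FDR = 0.141). The size of the change in this gene, read from the other strand, lay within the range of the 12 plus-strand genes.

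The remaining subunits of complex I changed least. mt-Nd1 (2751 to 3707) held 13044, 10999 and 16090 FPKM in WT, 18071, 16988 and 20847 FPKM in CD36KO and 14970, 13649 and 16095 FPKM in the CD36CKO-labelled libraries. CD36KO lay above WT without overlap, but 0.49 did not pass (SE 0.24, FDR = 0.206), and the CD36CKO-labelled libraries overlapped WT (0.17, FDR = 0.657). mt-Nd2 (3914 to 4951) held 3471 to 5037 FPKM in WT, 6034 to 7531 FPKM in CD36KO and 5133 to 5518 FPKM in the CD36CKO-labelled libraries, with fold changes of 0.65 (FDR = 0.0745) and 0.37 (FDR = 0.259). mt-Nd3 (9459 to 9806) overlapped in all groups: 199 to 344 FPKM in WT, 279 to 642 FPKM in CD36KO and 183 to 781 FPKM in the CD36CKO-labelled libraries. Its fold changes of 0.43 and 0.26 did not pass (FDR = 0.606 and 0.757).

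mt-Cytb (14145 to 15288, plus strand) encodes cytochrome b, the haem-bearing core of complex III. It held 7958, 6528 and 9607 FPKM in WT, 15400, 13519 and 17527 FPKM in CD36KO and 13924, 13421 and 15426 FPKM in the CD36CKO-labelled libraries. The lowest library of either group was above the highest of WT. mt-Cytb rose in both, by 0.96 (SE 0.24, FDR = 0.0332) and by 0.84 (SE 0.24, FDR = 0.0483).

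Among the 3 catalytic-core subunits of complex IV, mt-Co1 and mt-Co3 rose in CD36KO. mt-Co1 (5328 to 6872, plus strand) carries the haem and copper centre that reduces oxygen and had the highest mean of the set over the 9 libraries, although mt-Nd1 stood above it in WT 1 and WT 2. It held 11313, 8978 and 20355 FPKM in WT, 27879, 24880 and 35447 FPKM in CD36KO and 23366, 22988 and 30776 FPKM in the CD36CKO-labelled libraries. WT 3 stood well above the other WT libraries and still below all others. The change in CD36KO lay at the edge of the threshold (1.19, SE 0.34, FDR = 0.04999), and that in the CD36CKO-labelled libraries did not pass (1.00, FDR = 0.0812).

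mt-Co3 (8607 to 9390, plus strand) showed the largest fold change of the 13 in both comparisons and wide spread within groups. It held 215, 199 and 363 FPKM in WT, 583, 1416 and 2908 FPKM in CD36KO and 694, 479 and 1643 FPKM in the CD36CKO-labelled libraries. The lowest and highest CD36KO libraries differed more from each other than the lowest did from WT. Its log2 fold change was 2.42 in CD36KO (SE 0.59, FDR = 0.0300) and 1.71 in the CD36CKO-labelled libraries (SE 0.59, FDR = 0.0821). mt-Co2 (7013 to 7696, plus strand), which binds cytochrome c, held 1486, 482 and 794 FPKM in WT, 1196, 1300 and 2910 FPKM in CD36KO and 1929, 2132 and 1735 FPKM in the CD36CKO-labelled libraries. WT 1 overlapped CD36KO. Neither fold change passed (1.00, FDR = 0.151, and 1.22, FDR = 0.0873).

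The ATP synthase has 2 members here. mt-Atp6 (7927 to 8607, plus strand), which forms part of the proton channel, held 176, 221 and 919 FPKM in WT, 1489, 984 and 1072 FPKM in CD36KO and 1141, 983 and 907 FPKM in the CD36CKO-labelled libraries. WT 3 stood about level with the libraries of the other groups and well above WT 1 and WT 2. mt-Atp6 rose in CD36KO (1.82, SE 0.51, FDR = 0.0475), and 1.61 in the CD36CKO-labelled libraries did not pass (SE 0.51, FDR = 0.0675). mt-Atp8 (7766 to 7969), a short accessory subunit, was the lowest coding gene at 7.04, 4.11 and 7.21 FPKM in WT, 13.1, 22.6 and 11.4 FPKM in CD36KO and 23.4, 6.27 and 5.86 FPKM in the CD36CKO-labelled libraries. It rested on 15 to 101 reads per library, and neither change passed (1.21, FDR = 0.111, and 0.62, FDR = 0.369). The 2 genes share 43 bases (7927 to 7969) on the same strand, shown here in capitals with 15 bases on each side, and how reads in that stretch were assigned is not stated in the sources used here.
mt-Atp8 and mt-Atp6: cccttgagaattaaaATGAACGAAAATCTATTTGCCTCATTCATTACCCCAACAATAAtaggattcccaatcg

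Some of these rows share their sequence with the nucleus. In the GENCODE M21 transcripts (GRCm38), 7 pseudogenes on chromosome 1 matched a mitochondrial coding gene over at least 200 bases at 99% identity or more, and the deposited table places them side by side on the minus strand within 4663 bases (chromosome 1, 24650616 to 24655278, build not given). They follow the order mt-Co1, mt-Co2, mt-Atp6, mt-Co3, mt-Nd3, mt-Nd4l and mt-Nd4 and nearly the same spacing, with 140 bases between the copies of mt-Co1 and mt-Co2 and 140 bases between those genes themselves. Between the copies of mt-Co2 and mt-Atp6 lay 233 bases, against 230 between the genes, where the tRNA gene mt-Tk and most of mt-Atp8 lie. Between the copies of mt-Co3 and mt-Nd3 lay 69 bases, against 68, where the tRNA gene mt-Tg lies. Only annotated transcripts were searched, so these stretches were not compared. Every tRNA gene is shorter than the 200 aligned bases required and could not be matched. Gm28661 held 681 identical bases of mt-Co2, Gm10925 held 678 of mt-Atp6, Gm28437 held 783 of mt-Co3, Gm10222 held 294 of mt-Nd4l and Gm28439 held the first 876 of mt-Nd4. Gm29216 matched mt-Co1 from base 1063 to its end with 1 difference, A1066T, and Gm28438 matched mt-Nd3 with 1 difference, T3C. Positions count from 1 at the start of the mitochondrial gene, and the mitochondrial base comes first. The stretches that tell these pairs apart, with the differing base in capitals, and the end of mt-Co3, where the pair differ only by the final annotated base of the mitochondrial gene, are as follows.
mt-Nd3: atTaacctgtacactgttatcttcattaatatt
Gm28438: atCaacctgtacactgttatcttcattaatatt
mt-Co1: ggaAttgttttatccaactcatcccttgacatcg
Gm29216: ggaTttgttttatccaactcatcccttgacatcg
mt-Co3: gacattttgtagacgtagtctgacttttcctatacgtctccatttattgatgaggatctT
Gm28437: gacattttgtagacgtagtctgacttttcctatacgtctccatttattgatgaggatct

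The 5 coding genes with such a copy over 98.99% to 99.87% of their length, together with mt-Atp8, were the 6 lowest of the 13. Their mean levels over the 9 libraries ran from 64.8 FPKM for mt-Nd4l to 1552 FPKM for mt-Co2, and mt-Atp8 averaged 11.2 FPKM. The other 7 genes averaged between 3470 FPKM (mt-Nd5) and 22887 FPKM (mt-Co1). The part that shared sequence plays in these levels was not tested, and how reads that match both places were assigned is not stated in the sources used here.

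The rows of the copies carried reads, and the split between gene and copy varied widely from library to library. Gm28438 held 570, 47.5 and 36.3 FPKM in WT, 50.3, 360 and 930 FPKM in CD36KO and 34.9, 32.3 and 40.6 FPKM in the CD36CKO-labelled libraries. Of the reads on it and mt-Nd3 together, mt-Nd3 took 35.1%, 88.0% and 84.7% in WT, 92.8%, 44.5% and 23.2% in CD36KO and 87.8%, 85.1% and 95.1% in the CD36CKO-labelled libraries. mt-Co2 took 79.3%, 20.05% and 63.9% of its pair in WT, 64.4%, 60.5% and 78.9% in CD36KO and 82.4%, 81.9% and 82.3% in the CD36CKO-labelled libraries. WT 2, the library with the lowest mt-Co2 level, was thus the one where most reads of the pair lay on the copy. mt-Co1 and mt-Nd4, with reads outside the shared stretch, kept 98.0% to 99.8% of their pairs in every library.

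Adding each copy to its gene, an alternative chosen after seeing the data, moved the single values but left 8 coding genes higher in CD36KO and gave 5 rather than 3 in the CD36CKO-labelled libraries. With its copy, mt-Co3 held 364, 387 and 508 FPKM in WT, 816, 1783 and 3457 FPKM in CD36KO and 904, 1315 and 1885 FPKM in the CD36CKO-labelled libraries, so that both groups lay above WT. mt-Co2 with its copy held 1875, 2403 and 1243 FPKM in WT, 1857, 2147 and 3686 FPKM in CD36KO and 2341, 2605 and 2110 FPKM in the CD36CKO-labelled libraries, and overlapped in all groups. mt-Atp6 with its copy held 287, 299 and 1023 FPKM in WT and 1123 to 1995 FPKM in all other libraries.

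**Figure D3:**
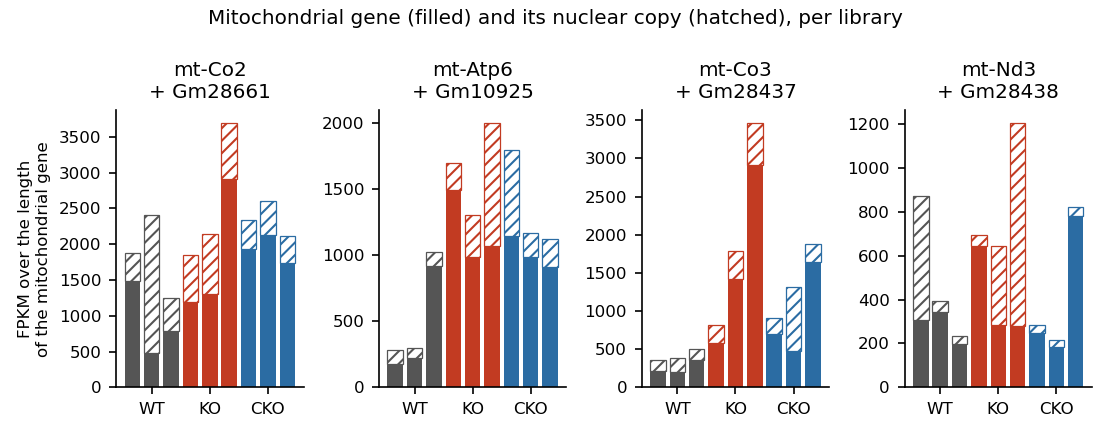
FPKM over the length of the mitochondrial gene for 4 coding genes (filled) and their nuclear copies (hatched), with 1 bar per library, replicates 1 to 3 from left to right in each group. The hatched part varies between libraries of the same group, as for mt-Nd3, where the gene took 35.1% of the pair's reads in WT 1 and 88.0% in WT 2.

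Among the 12 rows listed as nuclear copies, 10 passed the filter on low values. In CD36KO 4 rose and 1 fell, where 5.81% of all genes rose and 6.70% fell. In the CD36CKO-labelled libraries 3 rose and 1 fell, where 5.36% rose and 7.32% fell, so that the single falls are near the share of all genes. Gm28439 rose in both (1.41, FDR = 0.0148, and 1.15, FDR = 0.0295), as did Gm10222 (1.04, FDR = 0.0464, and 1.31, FDR = 0.0224). Gm13340 on chromosome 2, which matches the whole of mt-Co1 at 97.6% identity, also rose in both (1.78, FDR = 0.0150, and 1.24, FDR = 0.0483). Its level was 2.71 to 8.39 FPKM in WT, 12.9 to 28.7 FPKM in CD36KO and 9.82 to 14.8 FPKM in the CD36CKO-labelled libraries. Gm10925 rose in CD36KO (2.02, FDR = 0.0477). Gm28439, Gm10222 and Gm10925 are identical to mt-Nd4, mt-Nd4l and mt-Atp6 over the bases that they share. Reads within those bases cannot be placed by sequence, so these rises cannot be taken as separate from those of the mitochondrial genes. Gm28437, Gm28438, Gm28661, Gm29216 and Gm11478 did not pass in either comparison. AY036118, which fell in both (-1.04, FDR = 0.0282, and -0.88, FDR = 0.0472), was on the list but did not align to any mitochondrial transcript. Nor did Gm11478, or Gm15564, which was under the filter. The counts of the list include AY036118 and Gm11478, and AY036118 is the single fall in each comparison.

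The coding genes held different shares of their own total in the 3 groups. As a share of the summed FPKM of the 13 genes, mt-Nd1 held 27.1%, 28.4% and 25.1% in the WT libraries, 20.2%, 20.5% and 18.9% in CD36KO and 19.4%, 18.8% and 18.3% in the CD36CKO-labelled libraries. WT lay above both groups without overlap. mt-Nd2 followed the same pattern, with 8.47 ± 0.57% in WT (SD, n = 3), 6.99 ± 0.25% in CD36KO and 6.81 ± 0.48% in the CD36CKO-labelled libraries. Both genes kept the lower share without overlap when the geometric mean of the 13 genes, or the sum without mt-Atp6, mt-Atp8 and mt-Co3, was the denominator. mt-Co3 went the other way, from 0.51 ± 0.060% to 1.66 ± 0.99% and 1.14 ± 0.64%. Against the geometric mean, however, mt-Co3 in CD36KO overlapped WT. mt-Co1 held 26.2 ± 4.84% in WT, 31.1 ± 1.02% in CD36KO and 32.3 ± 2.38% in the CD36CKO-labelled libraries, with WT 3 (31.7%) among the latter groups. These shares are a description and were not tested.

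Both rRNA genes passed the filter. They encode the RNA of the small and the large subunit of the mitochondrial ribosome. mt-Rnr1 (70 to 1024, plus strand), the small-subunit 12S rRNA gene, held 403, 418 and 554 FPKM in WT, 999, 969 and 1014 FPKM in CD36KO and 847, 620 and 1197 FPKM in the CD36CKO-labelled libraries. Both groups lay above WT. It rose by 1.13 in CD36KO (SE 0.24, FDR = 0.0185) and by 0.92 in the CD36CKO-labelled libraries (SE 0.24, FDR = 0.0364). mt-Rnr2 (1094 to 2675, plus strand), the large-subunit 16S rRNA gene, held 875, 689 and 1431 FPKM in WT, 1737, 1526 and 2212 FPKM in CD36KO and 1081, 959 and 1238 FPKM in the CD36CKO-labelled libraries. CD36KO lay above WT, and the CD36CKO-labelled libraries lay within the WT range. Its changes of 0.92 (FDR = 0.0541) and 0.19 (FDR = 0.654) did not pass. CD36KO also lay above the CD36CKO-labelled libraries in mt-Rnr2 without overlap, but the log2 difference of 0.73 did not pass (FDR = 0.1575). The libraries were made from RNA captured by its poly-A tail, per the labels' protocols, so rRNA and tRNA rows measure what that capture retained.

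Of the 22 tRNA genes, 20 passed the filter. mt-Tf, the phenylalanine tRNA gene at the start of the annotated circle, had 0 reads in every library, which allows up to 3 reads per library and covers counting error only. mt-Td (aspartate) had 0 to 2 reads per library. The 20 others averaged from 1.38 FPKM (mt-Tk) to 2207 FPKM (mt-Tc), over genes of 59 to 75 bases. All 8 genes on the minus strand passed, with a median level of 278 FPKM, against 43.4 FPKM over the 14 on the plus strand.

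None of the 20 tRNA rows rose in CD36KO and 6 fell, where 5.81% of all genes tested rose and 6.70% fell. In the CD36CKO-labelled libraries 2 fell and none rose, where 7.32% of all genes fell and 5.36% rose, and 2 of 20 is near the share that fell. The medians of the 20 log2 fold changes were -0.30 and -0.32. In CD36KO 9 of the 20 fold changes were above 0 and 11 below, and in the CD36CKO-labelled libraries 6 and 14. Between CD36KO and the CD36CKO-labelled libraries, 2 tRNA genes were higher in CD36KO and 3 lower, where 2.61% and 1.93% of all genes were. Without CD36KO 3 the count of 3 became 1. Without any 1 of the CD36KO libraries, WT 1, WT 2 or CD36CKO 1 the count of 6 became 3, and without WT 3 it became 7. Of all genes, 1751 fell in CD36KO without WT 3, against 818 with it. The count of 2 became 0 without CD36CKO 2, 1 without WT 1, WT 2 or CD36CKO 1, and 3 without WT 3 or CD36KO 1.

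**Figure D4:**
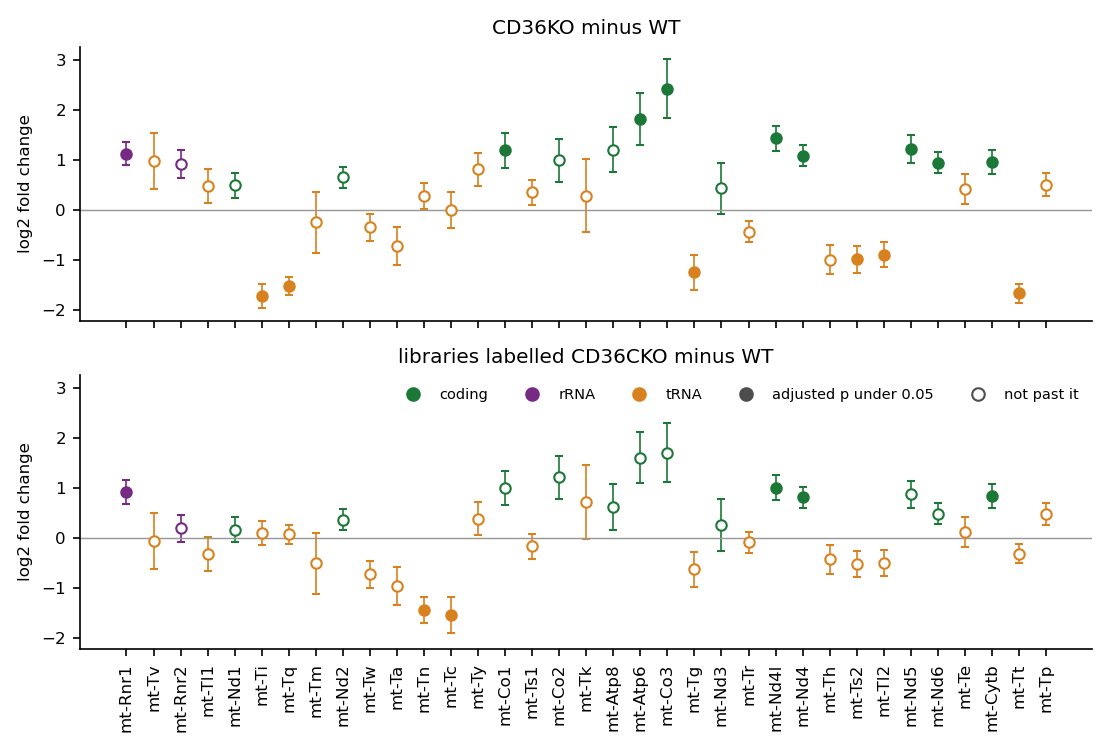
Log2 fold change of the 35 mitochondrial rows that passed the filter, in genome order, for CD36KO minus WT and for CD36CKO-labelled libraries minus WT; bars are 1 SE from limma and filled points passed an FDR of 0.05. Coding and rRNA points lie above 0 in both panels, and the filled tRNA points lie below 0 at mt-Ti, mt-Tq, mt-Tg, mt-Ts2, mt-Tl2 and mt-Tt in the upper panel and at mt-Tn and mt-Tc in the lower.

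The tRNAs that separate the genotypes most are shown as gene sequences on the sense strand, with the anticodon in capitals: isoleucine (mt-Ti, 3706 to 3774, plus strand), glutamine (mt-Tq, 3772 to 3842, minus strand), threonine (mt-Tt, 15289 to 15355, plus strand), asparagine (mt-Tn, 5089 to 5159, minus strand) and cysteine (mt-Tc, 5192 to 5257, minus strand).
mt-Ti: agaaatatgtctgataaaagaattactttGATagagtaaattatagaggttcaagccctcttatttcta
mt-Tq: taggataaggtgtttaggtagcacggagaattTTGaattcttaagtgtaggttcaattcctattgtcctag
mt-Tt: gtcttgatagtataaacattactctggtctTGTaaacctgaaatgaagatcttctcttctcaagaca
mt-Tn: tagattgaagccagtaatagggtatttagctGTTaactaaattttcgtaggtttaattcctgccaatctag
mt-Tc: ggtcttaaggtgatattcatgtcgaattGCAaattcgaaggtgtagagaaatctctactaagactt

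mt-Ti, mt-Tq and mt-Tt were lower in CD36KO than in both other groups. mt-Ti held 48.1, 45.4 and 26.8 FPKM in WT, 9.001, 14.9 and 10.1 FPKM in CD36KO and 49.3, 37.7 and 39.0 FPKM in the CD36CKO-labelled libraries, from 12 to 72 reads per library. CD36KO lay below all other libraries, and the latter overlapped WT. It fell by 1.72 against WT (SE 0.24, FDR = 0.00492) and was lower than in the CD36CKO-labelled libraries by a log2 difference of -1.82 (FDR = 0.00878). mt-Tq, whose gene overlaps mt-Ti by 3 bases on the opposite strand, held 10.5, 14.96 and 9.21 FPKM in WT, 4.04, 3.61 and 2.46 FPKM in CD36KO and 12.6, 11.4 and 11.8 FPKM in the CD36CKO-labelled libraries. These values came from 3 to 19 reads per library, and CD36KO again lay below all others. The log2 fold change was -1.51 against WT (SE 0.18, FDR = 0.0029) and -1.59 against the CD36CKO-labelled libraries (FDR = 0.00804).

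mt-Tt, which begins at the base after mt-Cytb ends, held 29.6, 33.4 and 36.6 FPKM in WT, 9.27, 9.57 and 10.4 FPKM in CD36KO and 18.3, 33.1 and 30.4 FPKM in the CD36CKO-labelled libraries. It rested on 10 to 52 reads per library, and the CD36KO libraries differed little from one another. It fell by 1.67 against WT (SE 0.19, FDR = 0.00283), and the difference from the CD36CKO-labelled libraries was -1.35 (FDR = 0.0106). mt-Cytb itself rose in the same libraries. The falls of mt-Ti, mt-Tq and mt-Tt against WT stayed past the threshold under all 20 alternatives.

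mt-Tn and mt-Tc, neighbours with 32 bases between them, were lower in the CD36CKO-labelled libraries than in both other groups and rested on many more reads, 516 to 6673 per library. mt-Tn held 1168, 1214 and 1296 FPKM in WT, 1811, 1744 and 1035 FPKM in CD36KO and 343, 444 and 604 FPKM in the CD36CKO-labelled libraries. All 3 of the latter lay below every other library. It fell by 1.44 against WT (SE 0.26, FDR = 0.0116), and CD36KO was higher than the CD36CKO-labelled libraries by 1.71 (FDR = 0.0116). mt-Tc held 2498, 2695 and 2897 FPKM in WT, 4830, 1875 and 2180 FPKM in CD36KO and 736, 817 and 1332 FPKM in the CD36CKO-labelled libraries. CD36KO 1 stood apart from its group in mt-Tc, and the CD36CKO-labelled libraries were again lowest. Its fold change against WT was -1.53 (SE 0.36, FDR = 0.0258), and CD36KO was higher than those libraries by 1.54 (FDR = 0.0422). Neither gene differed from WT in CD36KO past the threshold (0.28, FDR = 0.508, and 0.01, FDR = 0.992).

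**Figure D5:**
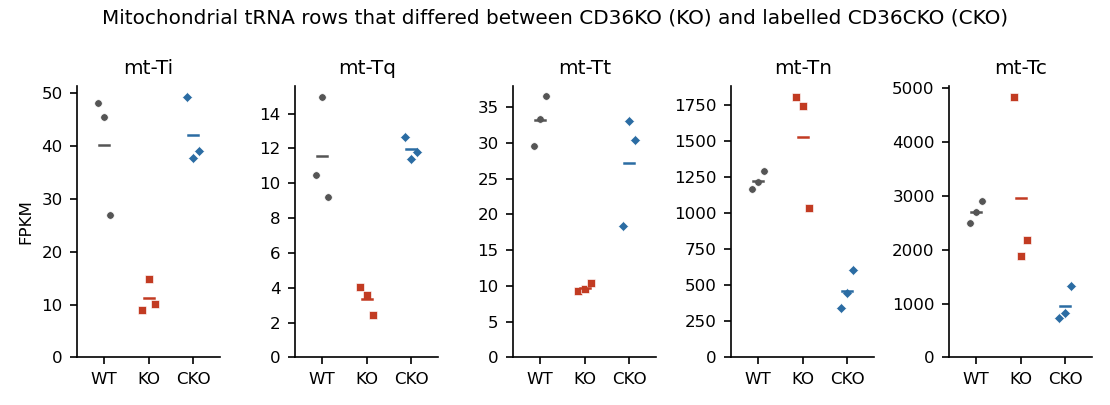
FPKM of the 5 tRNA rows that differed between CD36KO and the CD36CKO-labelled libraries; points are libraries and lines are group means (n = 3), with axes that start at 0. CD36KO is lowest for mt-Ti, mt-Tq and mt-Tt, and the CD36CKO-labelled libraries are lowest for mt-Tn and mt-Tc.

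The other tRNA genes that fell in CD36KO were those for glycine (mt-Tg), for serine (mt-Ts2) and for leucine (mt-Tl2). mt-Tg (9391 to 9458), between mt-Co3 and mt-Nd3, held 211, 287 and 150 FPKM in WT, 49.2, 115 and 118 FPKM in CD36KO and 150, 108 and 150 FPKM in the CD36CKO-labelled libraries (-1.25, SE 0.35, FDR = 0.0453 in CD36KO). mt-Ts2 (11613 to 11671) held 316, 283 and 210 FPKM in WT, 94.7, 140 and 180 FPKM in CD36KO and 191, 145 and 231 FPKM in the CD36CKO-labelled libraries (-0.99, SE 0.26, FDR = 0.0404). mt-Tl2 (11671 to 11741) held 609, 559 and 381 FPKM in WT, 203, 329 and 301 FPKM in CD36KO and 339, 300 and 452 FPKM in the CD36CKO-labelled libraries (-0.90, SE 0.25, FDR = 0.0466). The histidine gene mt-Th, which adjoins mt-Ts2, just missed the threshold (-0.99, SE 0.29, FDR = 0.0511), with 236 to 414 FPKM in WT and 113 to 203 FPKM in CD36KO. The run of mt-Th, mt-Ts2 and mt-Tl2 lies between mt-Nd4 and mt-Nd5, both of which rose in the same libraries. None of these 4 tRNA genes passed in the CD36CKO-labelled libraries (-0.43 to -0.63, FDR from 0.199 to 0.327). Whether reads were counted by strand, and how reads that span adjoining genes were assigned, is not stated in the sources used here.

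The remaining 11 tRNA rows passed in neither comparison with WT. In CD36KO their log2 fold changes ran from -0.72 for mt-Ta to 0.97 for mt-Tv, and in the CD36CKO-labelled libraries from -0.96 for mt-Ta to 0.72 for mt-Tk. The valine, lysine and methionine genes mt-Tv, mt-Tk and mt-Tm rested on 0 to 13 reads per library, and mt-Ts1, a serine gene, on 5 to 16. mt-Tl1, a leucine gene that lies between mt-Rnr2 and mt-Nd1, held 386 to 1033 FPKM in WT, 647 to 1213 FPKM in CD36KO and 457 to 552 FPKM in the CD36CKO-labelled libraries. mt-Tw, the tryptophan gene, held 309 to 420, 205 to 371 and 191 to 308 FPKM in the same order, so that the CD36CKO-labelled libraries lay just below WT (-0.72, FDR = 0.0962). mt-Ta, the alanine gene, also lay below WT there (24.7 to 41.6 FPKM against 52.9 to 66.4 FPKM, FDR = 0.113). For the tyrosine gene mt-Ty the fold changes were 0.81 (FDR = 0.132) and 0.39 (FDR = 0.439), for the arginine gene mt-Tr -0.43 (FDR = 0.195) and -0.08 (FDR = 0.819), and for the glutamate gene mt-Te 0.43 (FDR = 0.372) and 0.12 (FDR = 0.816). The libraries of mt-Ty, mt-Tr and mt-Te overlapped WT in both comparisons. mt-Tp, the proline gene on the minus strand, was well covered (1173 to 2208 reads) and held 979 to 1425 FPKM in WT, 1374 to 1905 FPKM in CD36KO and 1392 to 1971 FPKM in the CD36CKO-labelled libraries, with changes of 0.51 (FDR = 0.158) and 0.48 (FDR = 0.169).

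Of 78 tested nuclear subunits of complexes I to V, 0 rose and 1 fell in CD36KO, and 0 rose and 2 fell in the CD36CKO-labelled libraries. Of all genes, 5.81% rose and 6.70% fell in CD36KO, and 5.36% and 7.32% in the CD36CKO-labelled libraries. Of 36 nuclear subunits of complex I, 0 passed in either direction in CD36KO (median log2 fold change -0.03) or in the CD36CKO-labelled libraries (-0.34) by limma. The same was true of the 4 complex II subunits (0.16 and 0.03) and of 9 nuclear subunits of complex III (-0.07 and -0.34). Among 14 nuclear subunits of complex IV, Cox6a1 fell in CD36KO (-0.85, FDR = 0.0475) and Cox7a1, a subunit of heart and skeletal muscle, in the CD36CKO-labelled libraries (-0.80, FDR = 0.0464), with medians of 0.02 and -0.37. Among 15 tested genes of complex V, none passed in CD36KO (-0.04), and Atp5k fell in the CD36CKO-labelled libraries (-1.13, FDR = 0.0237; median -0.43). The counts changed with 1 WT library and with the scaling. Without WT 3, 12 of the 78 fell in CD36KO and 62 in the CD36CKO-labelled libraries. Falls over all genes also grew without WT 3, from 818 to 1751 in CD36KO and from 893 to 2155 in the CD36CKO-labelled libraries. Without any other 1 of the libraries the falls among the 78 numbered 0 and 0 to 1. With mitochondrial and haemoglobin rows removed before rescaling, 5 rose and 1 fell in CD36KO and 2 rose and 4 fell in the CD36CKO-labelled libraries, and under quantile normalization 15 rose and 1 fell in CD36KO and 5 rose in the CD36CKO-labelled libraries. Of all genes, 705 rose in CD36KO and 1623 in the CD36CKO-labelled libraries in the former setting, and 933 and 811 in the latter. In the CD36CKO-labelled libraries, 35 of 36 complex I genes and all 14 complex IV genes had a fold change below 0, which became 26 and 11 with those rows removed and 18 and 7 under quantile normalization. Summed over complex I, nuclear subunits held 7973, 9986 and 5261 FPKM in WT 1 to 3, while the mitochondrial coding genes summed to 48138, 38663 and 64145 FPKM, so the order of the WT libraries was reversed between them. CD36KO 1 to 3 held 7878, 7427 and 7405 FPKM of nuclear complex I, within the WT range. CD36CKO 1 to 3 held 6174, 5222 and 5887 FPKM, so that WT 3 lay among them. The CD36KO values stood beside 89588, 82831 and 110480 FPKM of mitochondrial coding genes.

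At the scaling of the deposited FPKM values, few of the factors that transcribe, copy and process mitochondrial nucleic acids passed the test. Of 9 transcription factors and polymerase subunits, none passed in CD36KO (median 0.05), and Tfb2m, which opens the mitochondrial promoters for the polymerase, rose in the CD36CKO-labelled libraries (0.44, FDR = 0.0479). Polrmt, the mitochondrial RNA polymerase, passed in neither (-0.34 and 0.10). Of 13 replication genes, Twnk, the replicative helicase, and Top3a, a topoisomerase, fell in CD36KO (-0.57, FDR = 0.0485, and -0.38, FDR = 0.046), and Polg, the catalytic subunit of the mitochondrial DNA polymerase, rose in the CD36CKO-labelled libraries (0.37, FDR = 0.0352). Of 21 genes for RNA processing and stability, Ptcd1, a pentatricopeptide protein that binds leucine tRNA precursors in human cells, fell in CD36KO (-0.67, SE 0.12, FDR = 0.0107). Angel2 and Fastkd1 rose in the CD36CKO-labelled libraries (0.38, FDR = 0.0422, and 0.53, FDR = 0.0454). Elac2, which cuts the 3′ ends of mitochondrial tRNAs, passed in neither (-0.27 and -0.19). Of 13 nuclear regulators of mitochondrial genes, Gabpa, a subunit of the transcription factor GABP, rose in both (0.49, FDR = 0.0418, and 0.52, FDR = 0.0357). Gabpb1, its partner, rose in CD36KO (0.36, FDR = 0.0484), and Nrf1, a transcription factor of nuclear genes for mitochondrial proteins, fell in the CD36CKO-labelled libraries (-0.38, FDR = 0.0271). Without WT 3, of the 43 factors other than regulators, 2 rose and 8 fell in CD36KO rather than 0 and 3, and 6 rose and 2 fell in the CD36CKO-labelled libraries rather than 4 and 0. Of all genes, 1447 then rose and 1751 fell in CD36KO rather than 709 and 818. In the CD36CKO-labelled libraries 1783 then rose and 2155 fell rather than 654 and 893. Without any other 1 of the libraries, 0 rose and 1 to 2 fell in CD36KO, and 0 to 2 rose and 0 fell in the CD36CKO-labelled libraries. The counts also changed with the scaling. With mitochondrial and haemoglobin rows removed before rescaling, 0 of the 43 rose and 0 fell in CD36KO. In the CD36CKO-labelled libraries 16 then rose and 0 fell, where 1623 of all genes rose and 402 fell. With all libraries and the deposited scaling, 5.81% of all genes were higher and 6.70% lower in CD36KO, and 5.36% and 7.32% in the CD36CKO-labelled libraries.

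Among cell type markers, some lists differed between the groups and others overlapped. Of 10 atrial markers, 8 fell in CD36KO and 4 in the CD36CKO-labelled libraries, where 6.70% and 7.32% of all genes fell, and their sum was 4328 to 7040 FPKM in WT, 218.5 to 1450 FPKM in CD36KO and 726 to 2209 FPKM in the CD36CKO-labelled libraries, without overlap with WT. The sum of 12 cardiomyocyte markers overlapped in all groups (18050 to 30160, 20840 to 24320 and 17420 to 20860 FPKM). Of these 12, 1 rose and 1 fell in CD36KO and 1 rose in the CD36CKO-labelled libraries, where 5.81% and 5.36% of all genes rose. Endothelial markers summed to 248.9 to 279 FPKM in WT, 241 to 282 FPKM in CD36KO and 213 to 247 FPKM in the CD36CKO-labelled libraries, and the latter lay just below WT. Of these 8 markers, 1 rose and 1 fell in CD36KO, and 0 rose and 2 fell in the CD36CKO-labelled libraries. The sums of fibroblast markers (398 to 528, 379 to 426 and 271 to 541 FPKM) and macrophage markers (58.0 to 105, 63.5 to 71.4 and 44.1 to 61.2 FPKM) overlapped WT in both comparisons. Of 8 fibroblast markers, 1 rose and 0 fell in each comparison. Of 8 macrophage markers, 2 rose and 0 fell in CD36KO, and 0 passed in the CD36CKO-labelled libraries. Of all genes, 5.81% rose and 6.70% fell in CD36KO, and 5.36% and 7.32% in the CD36CKO-labelled libraries. Erythroid markers summed to 5935 to 9212 FPKM in WT, 3178 to 5103 FPKM in CD36KO and 4331 to 5509 FPKM in the CD36CKO-labelled libraries, and 0 of 6 passed by limma in either comparison. Skeletal muscle markers summed to 3644 FPKM in CD36CKO 3 and to 388 to 773 FPKM in the other 8 libraries. The part of the tissue make-up in the mitochondrial levels was not tested, and in bulk tissue fewer cells of a type and less RNA per cell cannot be told apart.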

How the data were processed

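Per the labels' protocols, poly-T beads pulled messenger RNA from total heart RNA, and strand-specific libraries were built by the dUTP method from randomly primed cDNA. The table that the authors deposited lists FPKM values for 56748 genes beside position, strand and gene length, per the file headers. The submitters' processing notes name CASAVA, HISAT, HISAT2 and TopHat2 but neither versions nor roles. The sources used here do not state the read counter, the genome build, the use of strand in counting or the treatment of reads that match several places. FPKM divides by library size, so more reads on 1 class of transcript lower the values of the rest.

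FPKM multiplied by gene length fell on whole multiples of 1 step per library: 100% of values were whole to within 0.05 reads. These read numbers, 14408631 to 20725356 per library, gave the read shares and the reads behind each row, and they limit the precision of short genes. limma 3.58.1 in R 4.3.3 (lmFit, eBayes with a trend) was run on log2(FPKM + 1) of all 9 libraries, with 1 mean per genotype (residual degrees of freedom 6, prior degrees of freedom 3.68). Genes needed a mean of 1 FPKM, p-values were adjusted over 12206 genes, and the steps were tested on simulated data. Fold changes on this scale understate the change of low genes. The 37 mitochondrial rows have the same identifier, position and strand in GENCODE M21 (GRCm38), whose transcripts gave the sequences; the nuclear positions are those of the deposited table. Pseudogenes were matched with BLAST+ 2.17.0 at a minimum of 200 bases and 99% identity for adding to a gene.

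The members and lists were chosen with earlier results of these data known. Every mitochondrial row past the filter is named. From each nuclear list other than cell type markers, the rule took the 2 members with the smallest p in CD36KO against WT and the 2 with the smallest p in the CD36CKO-labelled libraries against WT, together with all tested nuclear copies and Cd36; of the listed genes, those past the threshold and a few others are given here. Other named genes were chosen after their values were seen. Of the lists, nuclear-retained RNAs (5 tested) had 0 members past the limma threshold in either comparison with WT.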

Additional observations from a re-analysis of the deposited data

Results flagged for a closer look

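The following differ by the direct contrast of CD36KO minus the CD36CKO-labelled libraries, past an FDR of 0.05 from limma with 3 libraries per group. Groups of 3 are too small for a test of single outlying libraries, and none was made. Among the tRNA genes, the log2 difference was -1.82 for mt-Ti, -1.59 for mt-Tq and -1.35 for mt-Tt, all lower in CD36KO, and 1.71 for mt-Tn and 1.54 for mt-Tc, both higher in CD36KO. No mitochondrial coding or rRNA gene was among them.

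Of 78 nuclear subunits of complexes I to V, 4 were higher in CD36KO and 0 lower, where 2.61% of all genes were higher and 1.93% lower: 0.72 for Ndufa1 and 0.70 for Ndufa3 of complex I, 1.40 for Cox8b of complex IV and 1.10 for Atp5k of complex V. Ndufa1, Ndufa3 and Cox8b passed in neither comparison with WT. Without WT 3 the count of 4 became 21, without WT 2 it became 5 and without WT 1 it became 2, without CD36CKO 3 it became 1, and without any 1 of the other 5 libraries it became 0. Of all genes, 786 were higher and 666 lower in CD36KO without WT 3, against 318 and 235 with it. With only the compared groups in the fit 30 of the 78 were higher, where 774 of all genes were. With library weights 33 were, where 1267 of all genes were, and without a filter on low values 0 were. Of the 78 differences 3 were below 0, which became 9 with mitochondrial and haemoglobin rows removed before rescaling and 19 under quantile normalization. Of 43 factors for mitochondrial DNA and RNA, 0 were higher and 3 lower in CD36KO: Twnk (-0.68), Fastkd1 (-0.61) and Ptcd1 (-0.51). That 3 became 5 without WT 3, 2 without WT 2 and 0 without any 1 of the other 7 libraries. It became 5 with only the compared groups in the fit, where 590 of all genes were lower. Of the 43 differences 36 were below 0. The 7 called differences of subunits and factors stayed past the threshold in 5 (Fastkd1) to 13 (Cox8b) of 19 or 20 alternatives. Cd36 differed by -1.46, since its level was lower than in WT in CD36KO and not in the CD36CKO-labelled libraries.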

How the results depend on the processing

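No called difference of a mitochondrial row reversed: over 26 called differences and 20 alternatives each, 341 of 520 values stayed past the threshold and 179 kept their direction without passing. Some settings leave a fold change as it is, so it could not reverse there. These are another filter on low values, the replicate block, only the compared groups in the fit, or leaving out a library of the group not compared. For CD36KO against WT, calls held in as few as 6 of 20 settings for mt-Co1 and mt-Atp6 and 7 for mt-Tg and mt-Tl2. They held in 20 for mt-Nd4l, mt-Ti, mt-Tq and mt-Tt. For the CD36CKO-labelled libraries against WT, calls held in 6 (mt-Cytb) to 18 (mt-Tn). Between CD36KO and the CD36CKO-labelled libraries, calls held in 9 (mt-Tc) to 20 (mt-Tq). Counts moved more than fold changes, and the causes were not tested. Against 8 coding genes higher in CD36KO, the count was 1 without a filter on low values, 2 after quantile normalization, 3 with only the compared groups in the fit, 1 without the libraries with Y-linked transcripts (CD36KO 3 and CD36CKO 3), and 1 to 10 when single libraries were left out. Against 3 in the CD36CKO-labelled libraries, the same settings gave 0, 2, 1, 0 and 0 to 9. That count was also 5 at a mean of at least 5 FPKM, 8 with mitochondrial and haemoglobin rows removed before rescaling, 9 with library weights and 5 with nuclear copies added. Against 6 tRNA genes lower in CD36KO, the count was 3 without a filter, with mitochondrial and haemoglobin rows removed, with only the compared groups or without the libraries with Y-linked transcripts, 10 with library weights, and 3 to 7 without single libraries. Against 2 in the CD36CKO-labelled libraries, it was 0 without a filter, 9 with library weights, 1 without the libraries with Y-linked transcripts, and 0 to 3 without single libraries. For CD36KO against the CD36CKO-labelled libraries, 0 higher coding genes became 1 with library weights, and 3 lower tRNA genes became 1 without the libraries with Y-linked transcripts and 1 to 3 without single libraries.

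The median log2 fold change of the coding genes ran from 0.81 (quantile normalization) to 1.23 in CD36KO and from 0.67 to 1.12 in the CD36CKO-labelled libraries, where 1.12 came from removing mitochondrial and haemoglobin rows before rescaling. The estimate of the library weights did not converge and gave WT 1 a weight of 37.3 and the other libraries 0.131 to 1.42, so counts with these weights rest largely on 1 WT library. With these weights 3376 of all genes rose and 3473 fell in CD36KO, and 3034 rose and 3090 fell in the CD36CKO-labelled libraries. Between CD36KO and the CD36CKO-labelled libraries the median of 0.28 became 0.00 under quantile normalization, which gives genes of the same rank the same value in every library.

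Over 21 called differences of nuclear subunits, factors and regulators, 195 of 414 alternative values stayed past the threshold and none reversed, from 5 of 19 for Fastkd1 between CD36KO and the CD36CKO-labelled libraries to 18 of 20 for Ptcd1 in CD36KO against WT. Over 9 of rows listed as nuclear copies, among them those of AY036118, 106 of 175 did. Here too, the settings that leave a fold change as it is could not reverse it.

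Replicate numbers are shared by the groups, but deviations of same-numbered libraries correlated at -0.43 to 0.14, so the numbers were not taken to pair libraries. With the replicate number as a block, 7 coding and 3 tRNA genes passed in CD36KO and 2 and 2 in the CD36CKO-labelled libraries.

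When leaving out a library left a group with 2, the spread was still estimated over all groups. Depth limits the short genes: mt-Tv, mt-Tk, mt-Tm, mt-Ts1 and mt-Tq rested on fewer than 20 reads per library.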
